A study of Mus musculus with 8 samples.

Results

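The genes described here are those that epidermal keratinocytes switch on as they leave the basal layer and form the cornified surface. The list held 47 gene symbols, and a gene was taken as measured where a row of the deposited intensity table was annotated to that symbol alone. This gave 41 genes out of 23332 rows (transcript clusters, each a set of probes along 1 transcript). Flg and Klk10 had only rows shared with another gene, Krtdap, Klk5, Spink5 and Cers3 had no row annotated to them, and these 6 are not analysed here. Each of the 41 had a single row.

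RNA came from 4 keratinocyte lines, each with 2 arrays of the Affymetrix Mouse Exon 1.0 ST type. All derive from MK546, an epidermal line from newborn mice without the integrin α3 subunit, immortalized with SV40 large T antigen. The α3α9 line carries both human α3 and human α9, the α3 line carries human α3 by stable transfection, the α9 line carries human α9 by stable retroviral transduction, and the null line is the parent with neither. Integrins are receptors that hold cells to the extracellular matrix and signal from it. All lines grew at 33 °C and 8% CO2 on denatured collagen. Their medium held 4% calcium-depleted serum, 0.05 mM CaCl2, 10 ng per ml EGF, 10 units per ml interferon-γ, 0.4 µg per ml hydrocortisone, 5 µg per ml insulin, penicillin and streptomycin. The labels do not say whether a line is 1 clone. The series text calls the arrays biological replicates and does not mention separate cultures, and the p-values therefore reflect array-to-array spread that could be purely technical. Titles mark the α3 and null arrays as re-analysis and not the α9 and α3α9 arrays, so that in both α9 comparisons the line and the set of arrays cannot be told apart.

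Terminal differentiation builds the cornified envelope, a protein shell that replaces the plasma membrane of the outermost cells. Scaffold and precursor proteins such as involucrin and the small proline-rich (Sprr) proteins are joined by transglutaminases, lipids are secreted to seal the spaces between cells, and proteases and their inhibitors control the shedding of the dead cells. In culture, low calcium holds keratinocytes in a basal-like state, and several transcription factors, among them Grhl1, Klf4 and Prdm1, act in the later programme.

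Array medians ran from 82.8 to 127, both extremes in the α3α9 line, and the deposited intensities were not scaled further, so array brightness adds to the spread. All intensities below are as deposited, and log2 changes are of intensity + 16 with their SE. Calls are those with an adjusted p under 0.05 in limma's test over all 23332 clusters. Intensities of different genes come from different probes and were not set against each other. They were added only over lists of cell type markers, where a sum follows the brightest genes. Of the 41 genes, 6 (Alox12b, Casp14, Klk6, Krt4, Lor and Tgm3) lay under the array median on all 8 arrays. Itga3, the gene lost in these mice, gave 1309.7 and 1181 in the α3 line and 1008 and 934 in the null line, and since the probes are for mouse and the introduced subunit is human this does not check the labels. The 8 markers of basal keratinocytes (Krt5, Krt14, Krt15, Itga6, Itgb4, Col17a1, Trp63 and Dst) summed to between 35021 and 37992 in the α3α9 line, 34067 and 35368 in the α3 line, 42930 and 43211 in the α9 line and 38230 and 39263 in the null line. Krt5 (13264 to 14926 over the arrays) and Krt14 (11005 to 12893) made up most of each sum, which says little of the other markers. Dst alone of the 8 passed on the deposited values, higher in the α9 line than in the null line (log2 change 1.03, adjusted p = 0.044). After quantile normalization 3 of the 8 passed lower in the α3 line against the null line (3.75% of all clusters). In the α3α9 line against the α9 line 2 passed lower (4.29%). Against the null line the α9 line had 1 higher and 1 lower (8.84% and 8.3%). The α3α9 line had 2 higher and 1 lower than the α3 line (10.1% and 8.75%). On the deposited values no fibroblast, melanocyte, endothelial or hair follicle marker passed in any comparison. Among 6 leukocyte markers only Cd68 passed, higher in the α9 line than in the null line (log2 change 1.11, adjusted p = 0.037). It gave 1035 and 883 in the α9 line and 364 and 514 in the null line. The 6 summed to between 824 and 1108 in the α3α9 line, 760 and 782 in the α3 line, 1158 and 1360.3 in the α9 line and 612 and 759 in the null line. Most of each sum was Cd68, and its part in the α9 results was not tested. None of these 6 markers lay under 16 on all 8 arrays. In whole-culture RNA, fewer differentiated cells and less RNA per cell cannot be told apart.

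Across the 4 comparisons between lines, 20 of the 41 genes passed at least once and 21 never did (27 and 14 after quantile normalization of the arrays). Over all clusters 7.47% passed at least once, and 31.5% after quantile normalization. Without α9, comparing the α3 line with the null line, Lgals7 rose and Sprr1a and Sbsn fell. These 3 of 41 stand against 1.3% of all clusters called in that comparison, 0.947% higher and 0.351% lower. With α9, comparing the α3α9 line with the α9 line, 8 genes fell (Sprr1a, Sprr1b, Sprr2d, Sprr2h, Sprr3, Cnfn, Asprv1 and Prdm1) and 2 rose (Cdsn and Lgals7). Over all clusters 1.87% were called there, 1.05% higher and 0.823% lower. The median log2 change of the 41 genes was -0.20 in the α3 against null comparison and -0.35 in the α3α9 against α9 comparison, beside 0.01 and -0.06 over all clusters.

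In the comparisons for α9, the α9 line against the null line had 11 genes higher and none lower, namely Ppl, Krt78, Cdsn, Lgals7, Ly6d, Klk8, Abca12, Grhl1, Klf4, Pou3f1 and Prdm1. All clusters had 4.32% called, 3.5% higher and 0.823% lower. At an unadjusted p under 0.05, limma gave 14 of the 41 genes higher and 1 lower, Ivl, beside 15.7% of all clusters higher and 4.37% lower. The α3α9 line against the α3 line had 7 genes higher (Krt78, Cdsn, Lgals7, Ly6d, Abca12, Grhl1 and Pou3f1) and 4 lower (Ivl, Sprr1b, Sprr2d and Sprr2h), and all clusters had 3.28% called, 2.14% higher and 1.14% lower. The median of the 41 genes was 0.31 and 0.19, beside 0.16 and 0.10 over all clusters. The α9 against null comparison shares its null arrays with the α3 against null comparison and its α9 arrays with the α3α9 against α9 comparison, so these values are given side by side and were not tested against each other.

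**Figure D1:**
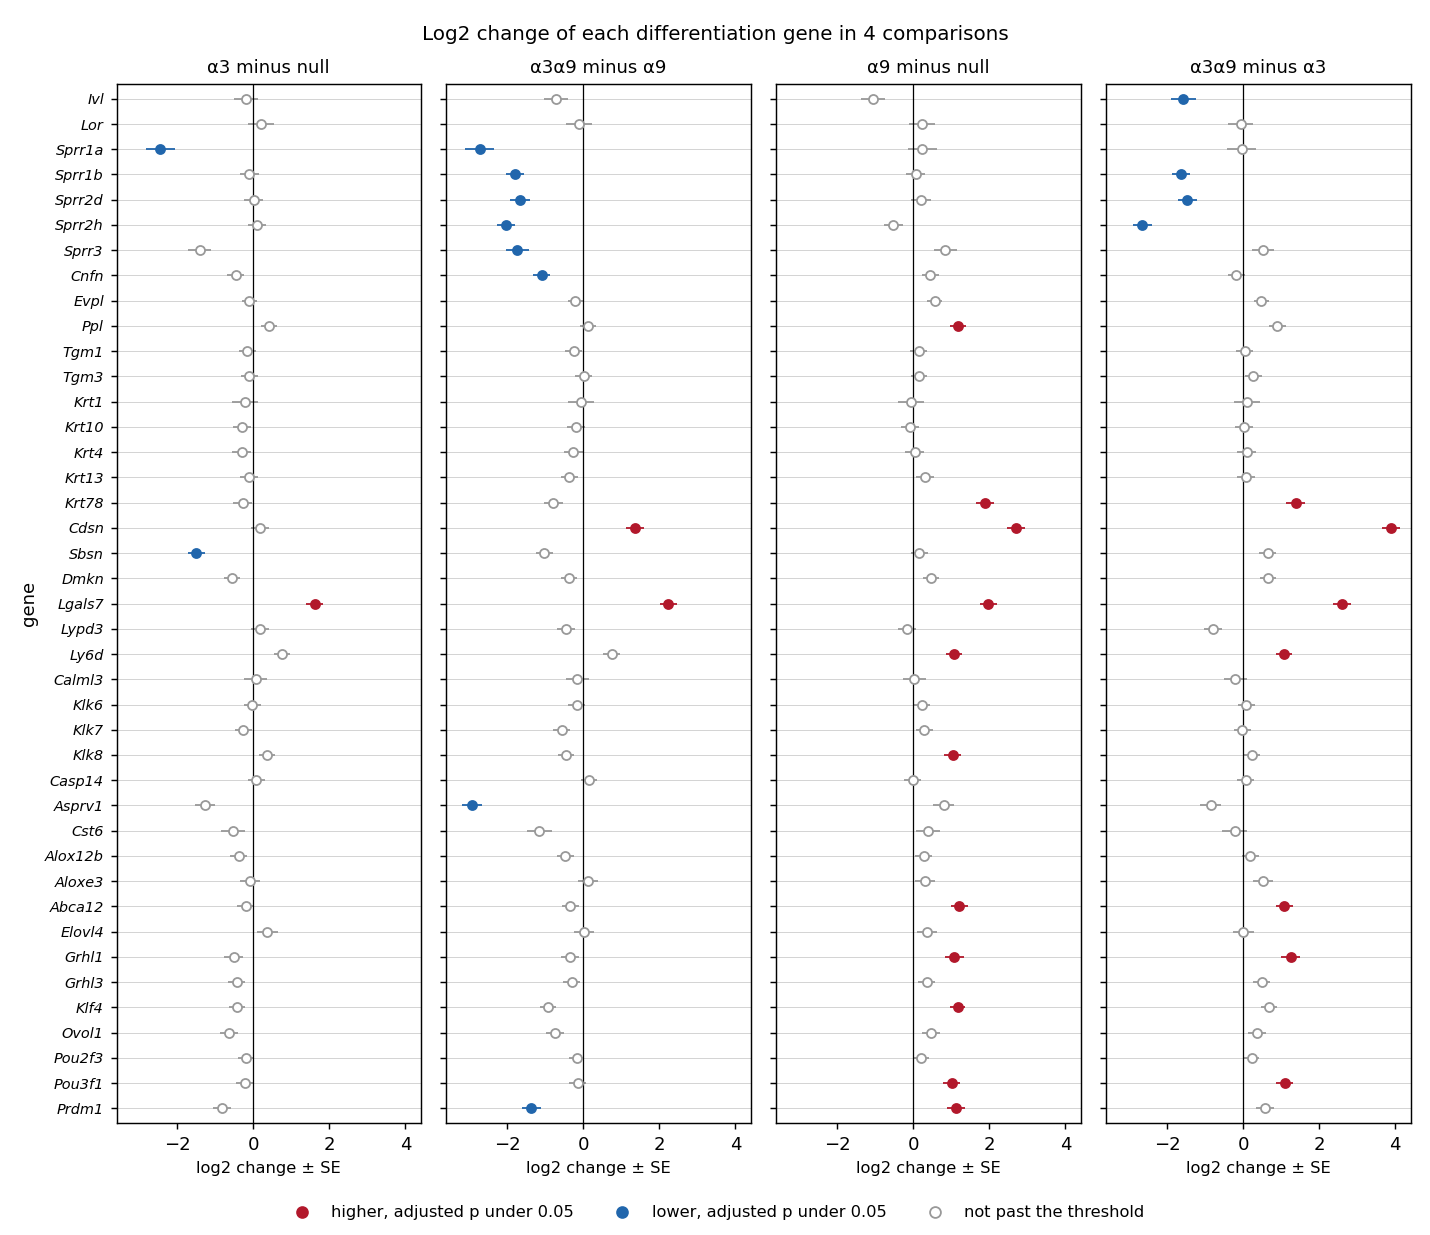
Log2 change ± SE (x axis, of intensity + 16) of each of the 41 genes (y axis) in the 4 comparisons, 2 arrays per line. Red points passed higher and blue points passed lower. The Sprr genes lie on the left in the α3α9 against α9 panel, with Sprr1a at -2.73, and Cdsn lies farthest right in the α3α9 against α3 panel at 3.90.

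The envelope precursors were the group with the most falls. Of 11 listed 10 were measured, and 6 of them fell and none rose in the α3α9 line against the α9 line. There 0.823% of all clusters passed lower and 1.05% higher. In the α3 line against the null line 1 fell, beside 0.351% of all clusters. Within the group the genes followed different patterns over the 4 lines. The Sprr genes and Ivl lie close together on chromosome 3 in the epidermal differentiation complex, with Sprr1b, Sprr3 and Sprr1a as immediate neighbours among protein-coding genes in RefSeq's order. Members of the Sprr2 subfamily are similar in sequence and may share probes, so which of them changed is uncertain.

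Sprr1a, a precursor that bridges other envelope proteins, was low in both lines with α3. It gave 181 and 469 in the α3α9 line, 294 and 308 in the α3 line, 1597 and 2584 in the α9 line and 1675 and 1764 in the null line. The 4 arrays with α3 did not overlap the 4 arrays without it. The share of all clusters whose arrays separate in such ways is not given here. With 2 arrays per line, arrays could also stay apart at small changes, as for Evpl in the α3 line against the null line (-0.11 ± 0.20). Sprr1a fell by 2.45 ± 0.38 on the log2 scale in the α3 line against the null line (limma adjusted p = 0.012) and fell by 2.73 ± 0.38 in the α3α9 line against the α9 line (adjusted p = 0.0060), and it was the only one of the 41 genes to pass as lower in both.

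Sprr3, a further member of the family known from mucosal epithelia, gave 44.0 and 84.9 in the α3α9 line, 32.3 and 44.9 in the α3 line, 194 and 303 in the α9 line and 129 and 128 in the null line. As with Sprr1a, every array with α3 lay under every array without it. Its fall passed in the α3α9 against α9 comparison (-1.74 ± 0.30, adjusted p = 0.017), and the α3 against null comparison gave -1.41 ± 0.30 (adjusted p = 0.055).

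Sprr1b, Sprr2d and Sprr2h were lowest in the α3α9 line. Sprr1b gave 336 and 522 in the α3α9 line, 1369 and 1302 in the α3 line, 1592 and 1408 in the α9 line and 1322 and 1558 in the null line. Its log2 change was -1.80 ± 0.24 against the α9 line (adjusted p = 0.0049) and -1.64 ± 0.24 against the α3 line (adjusted p = 0.0083). The null arrays overlapped those of the α3 line and those of the α9 line, and every α3α9 array lay below all others.

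Sprr2h gave 50.1 and 88.7 in the α3α9 line, 498 and 516 in the α3 line, 353 and 299 in the α9 line and 469.9 and 477 in the null line. It fell by 2.04 ± 0.24 against the α9 line (adjusted p = 0.0026) and fell by 2.65 ± 0.24 against the α3 line (adjusted p = 0.00067). Sprr2d gave 106 and 185 in the α3α9 line, 449 and 389.6 in the α3 line, 470.4 and 492 in the α9 line and 456 and 382 in the null line, with log2 changes of -1.66 ± 0.26 and -1.47 ± 0.26 against the α9 and α3 lines (adjusted p = 0.0100 and 0.018).

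Whether the α3 change differed with α9 was tested as an interaction, the α3α9 minus α9 change less the α3 minus null change. On the deposited values none of the 41 genes passed limma's test, against 0.0857% of all clusters (0.0129% higher and 0.0729% lower), and 6 of the 41 had an unadjusted p under 0.05, beside 5.7% of all clusters. Without α3α9 replicate 2, 3 of the 41 passed as lower, and 202 of all clusters passed there against 20 with every array. Sprr2h gave -2.13 ± 0.35 (adjusted p = 0.088), Sprr1b -1.70 ± 0.34 (0.17) and Sprr2d -1.67 ± 0.36 (0.22). After quantile normalization, which gives all arrays the same distribution, these 3 passed as lower, with -2.04, -1.67 and -1.60, where 0.737% of all clusters passed (0.309% higher and 0.429% lower). Leaving out any array there lost at least 1 of these calls, and fewer clusters passed over the whole table. All of these calls were lost without α3 replicate 2, α9 replicate 2 or either null array. Sprr1a and Sprr3 had interactions of -0.27 ± 0.54 and -0.32 ± 0.42.

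**Figure D2:**
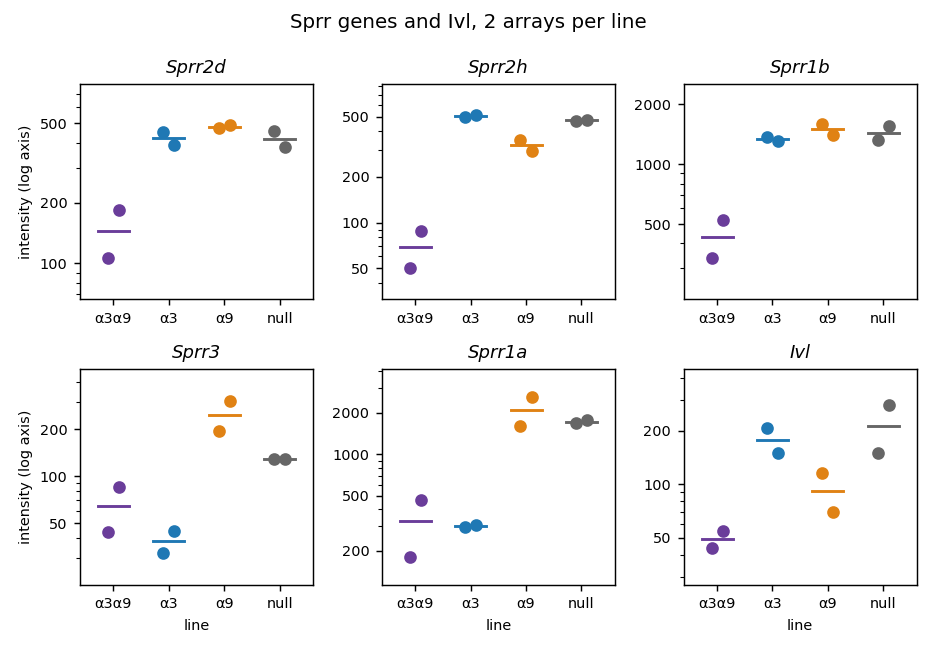
Deposited intensity (y axis, log scale) of 5 Sprr genes and Ivl in the 4 lines (x axis). Points are the 2 arrays of a line and bars their mean. Sprr1a and Sprr3 are low in both lines with α3, while Sprr1b, Sprr2d and Sprr2h are lowest in the α3α9 line, where Sprr2h gave 50.1 and 88.7.

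Promoter windows of these 6 genes are shown because the genes lie in the same stretch of chromosome 3 and yet differ in their pattern over the lines. They are taken from RefSeq, build GRCm38.p6, and run from 250 bases before to 50 bases after the annotated start. Capitals mark the AP-1 motif TGANTCA (its own reverse complement) and the TATA motif TATAAA.
Sprr2d (chr3:92338890-92339189, plus strand): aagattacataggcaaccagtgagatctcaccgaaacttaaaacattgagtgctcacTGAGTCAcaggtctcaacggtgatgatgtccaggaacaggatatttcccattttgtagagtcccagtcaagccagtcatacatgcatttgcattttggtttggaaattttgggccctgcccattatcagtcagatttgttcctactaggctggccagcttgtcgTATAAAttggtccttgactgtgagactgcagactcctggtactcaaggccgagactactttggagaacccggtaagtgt
Sprr2h (chr3:92385435-92385734, plus strand): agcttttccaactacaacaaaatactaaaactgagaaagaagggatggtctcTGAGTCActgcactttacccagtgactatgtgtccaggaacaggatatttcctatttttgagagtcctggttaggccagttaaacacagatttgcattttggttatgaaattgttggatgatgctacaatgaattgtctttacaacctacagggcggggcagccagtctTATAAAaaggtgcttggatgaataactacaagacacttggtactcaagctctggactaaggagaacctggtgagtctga
Sprr1b (chr3:92438730-92439029, minus strand): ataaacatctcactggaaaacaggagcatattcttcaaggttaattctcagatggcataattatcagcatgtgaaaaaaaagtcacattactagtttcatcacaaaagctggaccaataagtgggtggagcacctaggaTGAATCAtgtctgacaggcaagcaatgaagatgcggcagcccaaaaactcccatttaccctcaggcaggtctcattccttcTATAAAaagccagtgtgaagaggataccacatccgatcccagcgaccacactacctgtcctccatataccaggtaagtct
Sprr3 (chr3:92458671-92458970, minus strand): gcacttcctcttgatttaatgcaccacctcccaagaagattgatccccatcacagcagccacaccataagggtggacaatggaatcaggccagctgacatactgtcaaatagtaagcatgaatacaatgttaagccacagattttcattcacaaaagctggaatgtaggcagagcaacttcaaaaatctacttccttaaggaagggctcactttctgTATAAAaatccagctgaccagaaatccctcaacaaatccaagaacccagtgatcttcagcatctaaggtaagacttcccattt
Sprr1a (chr3:92485832-92486131, minus strand): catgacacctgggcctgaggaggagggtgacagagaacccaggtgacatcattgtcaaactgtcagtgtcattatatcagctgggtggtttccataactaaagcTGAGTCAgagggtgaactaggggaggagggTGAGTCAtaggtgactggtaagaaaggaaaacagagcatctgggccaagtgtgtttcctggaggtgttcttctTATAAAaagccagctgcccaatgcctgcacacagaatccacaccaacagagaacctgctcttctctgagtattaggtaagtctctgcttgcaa
Ivl (chr3:92573686-92573985, minus strand): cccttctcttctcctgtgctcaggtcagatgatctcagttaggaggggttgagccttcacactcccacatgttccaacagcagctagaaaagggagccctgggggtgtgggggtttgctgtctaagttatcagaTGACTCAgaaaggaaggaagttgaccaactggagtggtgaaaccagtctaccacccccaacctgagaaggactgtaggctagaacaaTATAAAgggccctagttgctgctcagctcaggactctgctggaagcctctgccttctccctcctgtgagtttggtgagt

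TGANTCA began 193 bases before the start in Sprr2d, 198 in Sprr2h, 111 in Sprr1b and 116 in Ivl, and Sprr1a held it at 146 and again at 116 bases before the start. No TGANTCA was found in the Sprr3 window. TATAAA began 29 bases before the start in Sprr2d, Sprr2h and Ivl, 30 in Sprr1b, 33 in Sprr3 and 43 in Sprr1a. Sprr2d and Sprr2h were the most alike pair of windows, with 65.8% identical columns in a global alignment. Sprr1b, like them lowest in the α3α9 line, had 53.3% with Sprr2d and 53.0% with Sprr2h. It had 58.0% with Sprr3 and 56.3% with Sprr1a, whose pattern over the lines differed. The pairs with Ivl had between 49.7% and 51.6%. Windows of unrelated genes were not aligned, so how far the values near these exceed a gapped alignment of unlike sequences is not known. Of the 41 genes 30 had a window in the RefSeq table, and TGANTCA occurred in 10 of these (33.3%), against 8.97% of all 27025 genes with a window. It occurred in 7 of the 10 genes with a window that fell in some comparison (Ivl, Prdm1, Sbsn, Sprr1a, Sprr1b, Sprr2d and Sprr2h), and in 1 of the 8 that rose, Prdm1, which is in both counts, while 3 of the 13 that passed in no comparison held it (23.1%). TATAAA or its reverse complement occurred in 15.7% of all genes with a window and in 9 of the 30, namely in 6 of the 10 that fell, 0 of the 8 that rose and 3 of the 13 that passed in none. Of 8 envelope precursors with a window, 6 held TGANTCA (75%) and 7 held TATAAA (87.5%). Lor, which passed in no comparison, held both. All genes that fell and held TATAAA were of this group, so for that motif the split into genes that fell and rose cannot be told apart from membership. For TGANTCA the split overlaps with the group in large part. Outside it Sbsn and Prdm1 fell and held TGANTCA, and Asprv1 fell and did not. Whether the motif goes with the fall or with the group was not tested. AACCNGTT, searched as the grainyhead motif on both strands, occurred in 0 of the 30 and in 2.35% of all genes with a window. These matches describe the letters of the windows, and factor binding was not measured.

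Involucrin (Ivl), an early scaffold of the envelope, gave 43.4 and 54.2 in the α3α9 line, 207 and 149.5 in the α3 line, 115 and 69.3 in the α9 line and 149.9 and 278 in the null line. Both lines with α9 lay below both lines without it, with no overlap. The fall passed in the α3α9 line against the α3 line (-1.57 ± 0.32, adjusted p = 0.031), and the α9 line against the null line gave -1.06 ± 0.32 (adjusted p = 0.096). After quantile normalization Ivl and Sprr2h also passed as lower in the α9 line against the null line, where 8.3% of all clusters passed lower.

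Cnfn, a small envelope protein, gave 53.5 and 65.3 in the α3α9 line and 136 and 153 in the α9 line, a log2 change of -1.09 ± 0.22 (adjusted p = 0.039). Periplakin (Ppl), which ties the envelope to desmosomes and keratin filaments, rose with α9. It gave 1011 and 1160.0 in the α9 line against 498 and 446 in the null line (1.17 ± 0.21, adjusted p = 0.018), and 1039 and 1358 in the α3α9 line against 658 and 602 in the α3 line (0.90 ± 0.21, adjusted p = 0.053). Its partner envoplakin (Evpl) did not pass, with log2 changes between -0.21 and 0.57. Loricrin (Lor), the main protein of the mature envelope, was dim on every array, from 17.7 to 51.9, and gave changes between -0.11 and 0.24.

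The crosslinking enzymes Tgm1 and Tgm3, the transglutaminases that join envelope proteins, passed in none of the 4 comparisons. Tgm1 lay between 95.5 and 145 and Tgm3 between 44.4 and 76.8 over the 8 arrays, and the log2 changes of the pair ran from -0.26 to 0.27.

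Of the suprabasal keratins, Krt78 alone passed. Krt78, a type II keratin of differentiating epidermis and mucosa, gave 98.3 and 164 in the α3α9 line, 34.4 and 44.6 in the α3 line, 233 and 232 in the α9 line and 50.7 and 52.0 in the null line. Both lines with α9 were above both without it. The change was 1.88 ± 0.24 in the α9 line against the null line (adjusted p = 0.0048) and 1.38 ± 0.24 in the α3α9 line against the α3 line (adjusted p = 0.020). Krt1 and Krt10, the keratin pair of epidermal spinous cells, ran from 74.3 to 193 and from 331 to 519 with no comparison past the threshold. Nor did Krt4 or Krt13, the pair of mucosal epithelia, whose arrays lay between 44.9 and 83.0 and between 62.3 and 111. The widest log2 change of these 4 keratins was -0.36, for Krt13 in the α3α9 line against the α9 line.

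Among the secreted and adhesion proteins, 7 of 8 were measured. Corneodesmosin (Cdsn), the glue protein of the desmosomes in cornified cells, had the largest change of the 41 genes. It gave 2803 and 4139 in the α3α9 line, 194 and 234 in the α3 line, 1229 and 1403 in the α9 line and 182 and 193 in the null line. The order was α3α9, α9, α3 and null, and no array of one line overlapped those of the next, although the α3 line against the null line did not pass (0.17 ± 0.24, adjusted p = 0.92). Cdsn rose by 3.90 ± 0.24 in the α3α9 line against the α3 line (adjusted p = 0.00011), by 2.71 ± 0.24 in the α9 line against the null line (adjusted p = 0.00061) and by 1.36 ± 0.24 in the α3α9 line against the α9 line (adjusted p = 0.018). Its interaction was 1.19 ± 0.33 (adjusted p = 0.49).

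Galectin-7 (Lgals7), a sugar-binding lectin of stratified epithelia, was the only gene of the 41 to pass in all 4 comparisons. It gave 6284 and 7278 in the α3α9 line, 1299.6 and 932 in the α3 line, 1477 and 1368 in the α9 line and 316 and 387 in the null line. The α3 and α9 lines each lay above the null line and below the α3α9 line. The rise was 1.61 ± 0.23 in the α3 line against the null line (adjusted p = 0.0073) and 2.24 ± 0.23 in the α3α9 line against the α9 line (adjusted p = 0.0011). For α9 it was 1.98 ± 0.23 without α3 (adjusted p = 0.0031) and 2.60 ± 0.23 with it (adjusted p = 0.00052). Its interaction was 0.63 ± 0.32 (adjusted p = 0.94).

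Ly6d, a lipid-anchored surface protein of keratinocytes, followed the same order of lines. Its arrays gave 6175 and 7420.2 in the α3α9 line, 3628 and 2865 in the α3 line, 4064 and 3987 in the α9 line and 1735 and 2081 in the null line. The α9 line against the null line gave 1.08 ± 0.22 and the α3α9 line against the α3 line 1.07 ± 0.22 (adjusted p = 0.026 and 0.032). The α3 comparisons gave 0.76 ± 0.22 and 0.75 ± 0.22 (adjusted p = 0.19 and 0.16), and both passed after quantile normalization.

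Suprabasin (Sbsn), a secreted protein of suprabasal cells, went against Lgals7 and Ly6d in the α3 comparisons. It gave 317 and 464 in the α3α9 line, 257 and 225 in the α3 line, 793 and 802 in the α9 line and 710.1 and 712 in the null line. No array with α3 reached an array without it. The fall passed in the α3 line against the null line (-1.51 ± 0.22, adjusted p = 0.0094), and the α3α9 line against the α9 line gave -1.03 ± 0.22 (adjusted p = 0.055). Dermokine (Dmkn), the secreted neighbour of Sbsn on chromosome 7, gave 1275 and 1317 in the α3 line and 1878 and 1943 in the null line (-0.55 ± 0.21, adjusted p = 0.35). Lypd3, a lipid-anchored surface protein, and Calml3, an epithelial relative of calmodulin, passed in no comparison on the deposited values. In the α3α9 line against the α3 line Lypd3 gave -0.79 ± 0.23. After quantile normalization it passed there as lower, where 8.75% of all clusters passed lower. Dmkn then passed there as higher (10.1% of all clusters), and as lower in the α3 line against the null line (3.75%).

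**Figure D3:**
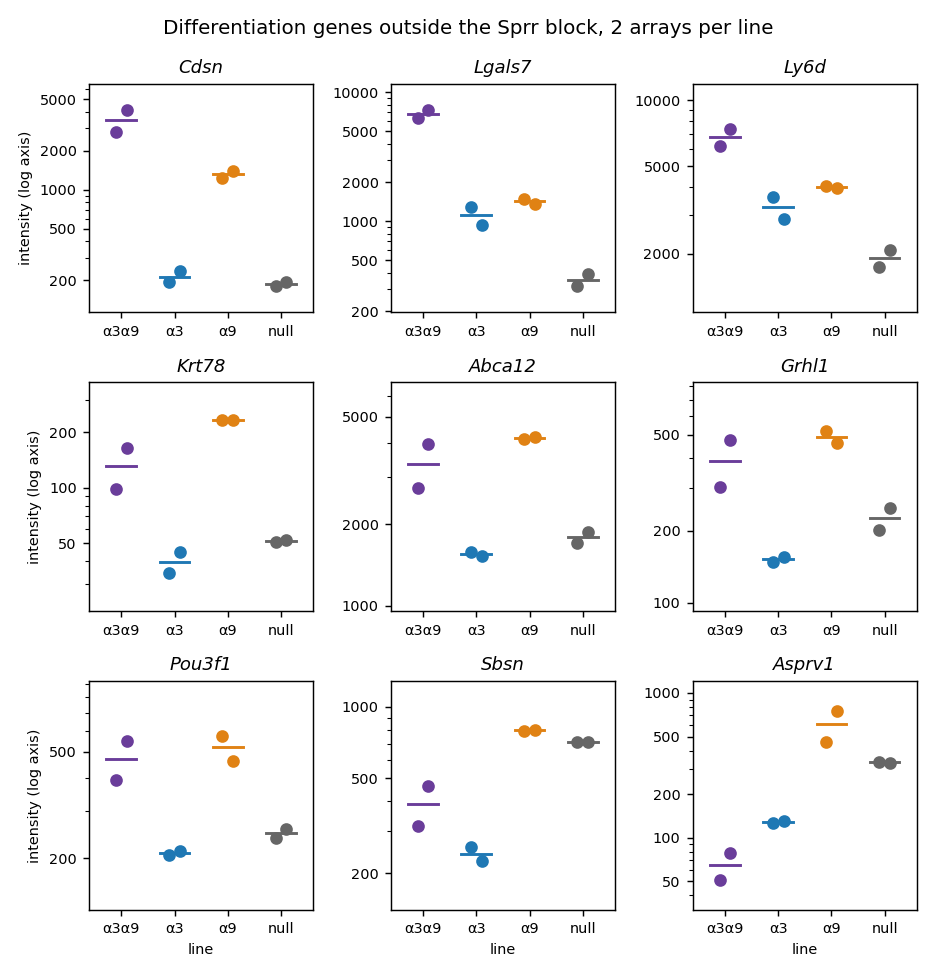
Deposited intensity (y axis, log scale) of 9 genes outside the Sprr block in the 4 lines (x axis), with the 2 arrays of each line as points and their mean as a bar. Cdsn, Krt78, Abca12, Grhl1 and Pou3f1 are higher in both lines with α9, Sbsn and Asprv1 are lower in both lines with α3, and Lgals7 is highest with both subunits at 6284 and 7278.

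Of the proteases and inhibitors 6 of 9 were measured. Asprv1, an aspartic protease that processes filaggrin, gave 50.8 and 77.9 in the α3α9 line, 126 and 129.8 in the α3 line, 458 and 754 in the α9 line and 334 and 329 in the null line. As with Sprr1a, all arrays with α3 lay below all arrays without it. Asprv1 fell by 2.93 ± 0.27 on the log2 scale in the α3α9 line against the α9 line (adjusted p = 0.00053), and the α3 line against the null line gave -1.27 ± 0.27 (adjusted p = 0.056). The interaction of Asprv1 was -1.66 ± 0.38 (adjusted p = 0.27). The kallikrein protease Klk8 gave 271 and 268 in the α9 line and 114 and 133 in the null line (1.03 ± 0.22, adjusted p = 0.030). With α3 present it gave 165 and 224 in the α3α9 line, which overlapped the 178 and 149 of the α3 line. Klk6, Klk7, the caspase Casp14 and the cystatin Cst6, an inhibitor of cysteine proteases, passed in no comparison on the deposited values. Among these the widest change was that of Cst6 in the α3α9 line against the α9 line (-1.15 ± 0.32, adjusted p = 0.14). After quantile normalization Cst6 and Klk7 passed there as lower, where 4.29% of all clusters passed lower.

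Abca12, the lipid transporter of lamellar granules, was the barrier lipid gene that passed. It gave 2733 and 3964 in the α3α9 line, 1574 and 1529 in the α3 line, 4159 and 4197 in the α9 line and 1706 and 1881 in the null line. The lines with α9 did not overlap the lines without it. Its change was 1.21 ± 0.22 in the α9 line against the null line (adjusted p = 0.018) and 1.08 ± 0.22 in the α3α9 line against the α3 line (adjusted p = 0.034). The lipoxygenases Alox12b and Aloxe3, which oxidize barrier lipids, and Elovl4, which makes very long fatty acids, gave log2 changes between -0.47 and 0.51, none past the threshold.

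All 7 transcription factors were measured, and 4 rose and none fell in the α9 line against the null line. Of all clusters 3.5% passed higher there and 0.823% lower. Grhl1, a grainyhead factor that binds desmosomal gene promoters, gave 303 and 478 in the α3α9 line against 148 and 155 in the α3 line, and 517 and 464 in the α9 line against 201 and 249 in the null line. Pou3f1, a POU factor of epidermis, gave 391 and 549 in the α3α9 line against 206 and 214 in the α3 line, and 575 and 464 in the α9 line against 239 and 258 in the null line. Both factors were higher with α9 whether α3 was there or not: Grhl1 by 1.24 ± 0.25 and 1.08 ± 0.25 with and without α3 (adjusted p = 0.028 and 0.039), and Pou3f1 by 1.09 ± 0.23 and 1.01 ± 0.23 (adjusted p = 0.034 and 0.036).

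Klf4, a factor required for the skin barrier in mice, stood at 749.5 and 980.2 in the α3α9 line, 537 and 526 in the α3 line, 1660.2 and 1623 in the α9 line and 715 and 733 in the null line. It rose by 1.16 ± 0.20 in the α9 line against the null line (adjusted p = 0.015), and the α3α9 line against the α9 line gave -0.92 ± 0.20 (adjusted p = 0.058). Prdm1 (Blimp1), a repressor active in the granular layer, gave 44.8 and 77.1 in the α3α9 line, 37.3 and 31.6 in the α3 line, 189.8 and 167 in the α9 line and 70.4 and 75.5 in the null line. The α9 line thus stood above every other line. Prdm1 was higher in the α9 line than in the null line (1.12 ± 0.24, adjusted p = 0.031) and lower in the α3α9 line than in the α9 line (-1.36 ± 0.24, adjusted p = 0.019). Grhl3, Ovol1 and Pou2f3 passed in no comparison, with changes between -0.74 and 0.48.

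**Figure D4:**
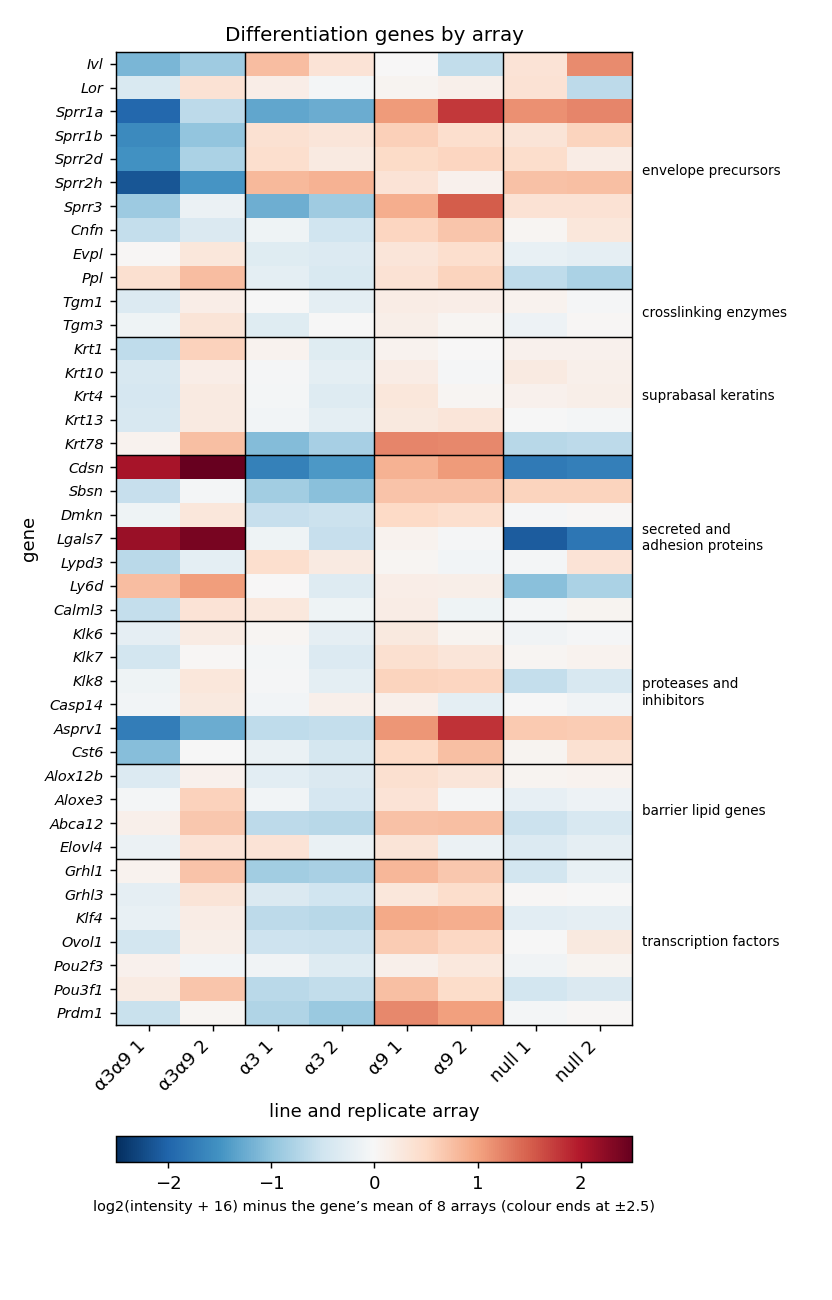
Each of the 41 genes (rows, by role) on each of the 8 arrays (columns), coloured by log2(intensity + 16) minus the gene's own mean over the arrays, red above and blue below. Sprr1a is blue in both lines with α3, and Cdsn and Lgals7 are red in the α3α9 line. Of the α3α9 arrays, the one with a median of 127 is brighter in most rows than the one with 82.8.

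Other genes of the programme were taken from lists of genes outside the 41. On the deposited values 0.947% of all clusters passed higher and 0.351% lower in the α3 line against the null line. The shares were 1.05% and 0.823% in the α3α9 line against the α9 line. They were 3.5% and 0.823% in the α9 line against the null line, and 2.14% and 1.14% in the α3α9 line against the α3 line. Of 25 measured further envelope genes none passed in the α3 line against the null line, and 3 fell in the α3α9 line against the α9 line, namely Sprr2e (-2.87 ± 0.31, adjusted p = 0.0015), Crct1 (-1.43) and the transglutaminase Tgm5 (-1.10). Sprr2e and Sprr2g also fell in the α3α9 line against the α3 line (-1.76 and -1.29), and Tgm5 (1.08) and Lce1a1 (1.02) rose in the α9 line against the null line. Of 24 further regulators 7 rose and 1 fell in the α9 line against the null line, with Vdr, the vitamin D receptor, at 2.15, Gata3 at 1.54, the AP-1 subunit Fosl2 at 1.47 and the AP-1 subunit Fosl1 at -1.91. In the α3α9 line against the α3 line 4 rose, namely Vdr (1.69), Zfp750 (1.30), Fosl2 (0.96) and Ehf (0.90). Fosl1 was the regulator that passed in the α3α9 line against the α9 line, where it was higher by 1.94. Of 15 further proteases and inhibitors the membrane protease Tmprss13 fell in both α3 comparisons (-1.48 without α9 and -1.94 with it). Prss8 (1.49), the inhibitor Spint1 (1.29) and Tmprss13 (0.91) rose in the α9 line against the null line, and Prss8 (0.91) rose in the α3α9 line against the α3 line. None of 18 further barrier lipid genes passed in these 4 comparisons, with limma at an adjusted p under 0.05. After quantile normalization 2 of the 18 rose and 1 fell in the α3 line against the null line (8.21% of all clusters passed). In the α3α9 line against the α9 line 3 rose and 1 fell (9.96%). None fell in the α9 comparisons, where 1 rose against the null line (17.1%) and 3 rose in the α3α9 line against the α3 line (18.8%). Krt16, a keratin of activated epidermis, gave 222 and 431 in the α3α9 line against 2586 and 2620.4 in the α9 line (-3.00, adjusted p = 0.00071), and Krt19, a keratin of simple epithelia, was higher with α3 in both comparisons (2.75 without α9 and 3.18 with it). The 2 measured simple epithelium markers, Krt18 and Krt19, summed to between 8911 and 11942 in the α3α9 line, 9530.0 and 9751 in the α3 line, 3226 and 3239 in the α9 line and 3024 and 3581 in the null line. Of 4 sebaceous markers Scd1, a fatty acid desaturase, was lower in both α3 comparisons (-1.39 and -2.16) and higher in the α9 line than in the null line (1.13), while the 4 summed to between 5679 and 6521 in the α3α9 line, 5882 and 6666 in the α3 line, 6115 and 7029 in the α9 line and 4938 and 5774 in the null line. No marker of the activated, simple epithelium or sebaceous lists lay under 16 on all arrays, and their part in the results was not tested.

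The counts depended on the scale of the arrays and on single arrays, and no call of the 41 genes changed direction in any setting tried. All 35 calls on the deposited values also passed after quantile normalization. There, 2 genes were higher and 9 lower in the α3 line against the null line (4.46% and 3.75% of all clusters, 8.21% in all), and 3 higher and 15 lower in the α3α9 line against the α9 line (5.67% and 4.29%, 9.96% in all). For α9 there were 11 higher and 2 lower against the null line (8.84% and 8.3%, 17.1% in all), and 13 higher and 5 lower in the α3α9 line against the α3 line (10.1% and 8.75%, 18.8% in all). The genes lower in both α3 comparisons were then Sprr1a, Sprr3, Sbsn, Asprv1, Alox12b, Ovol1 and Prdm1. Leaving out 1 array there took the 11 genes of the α3 against null comparison to 6 without α3α9 replicate 1, 7 without α3α9 replicate 2, 2 without α3 replicate 1, 3 without α3 replicate 2, 3 without null replicate 1 and 2 without null replicate 2. The 18 of the α3α9 against α9 comparison became 11 without α3α9 replicate 1 or α9 replicate 2, and the 18 of the α3α9 against α3 comparison became 11 without α3 replicate 1. The clusters passing over the whole table moved too, to between 381 and 1705 for α3 against null (1915 with every array), 687 and 1569 for α3α9 against α9 (2325) and 1369 and 3910 for α3α9 against α3 (4389).

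Leaving out an array leaves its line with 1 array that is assumed to vary like the others. The clusters passing over the whole table moved with the counts below, between 102 and 536 for the α3 line against the null line (303 with every array), 169 and 918 for the α3α9 line against the α9 line (436), 156 and 2532 for the α9 line against the null line (1009) and 88 and 2213 for the α3α9 line against the α3 line (765). In the α3 line against the null line the count of 3 was 0 without α3 replicate 1, 1 without α3 replicate 2 or either null array, 5 without either α9 array and 6 without either α3α9 array. Sprr1a was lost without either α3 array or null replicate 2, Sbsn without any of the α3 and null arrays, and Lgals7 without α3 replicate 1 or null replicate 1. In the α3α9 line against the α9 line the count of 10 was 5 without α9 replicate 2. Sprr1a, Sprr1b, Sprr2h, Lgals7 and Asprv1 held without each array there. Sprr2d was lost without α9 replicate 2, Sprr3 without that array or α3α9 replicate 1, Cdsn and Prdm1 without either α9 array, and Cnfn without any array other than α3α9 replicate 2. In the α9 line against the null line the count of 11 was 3 without any of the α9 and null arrays and 7 without either α3 array. Krt78, Cdsn and Lgals7 held throughout, Ppl, Ly6d, Abca12 and Klf4 were lost without any of the α9 and null arrays, and Klk8, Grhl1, Pou3f1 and Prdm1 also without either α3 array. In the α3α9 line against the α3 line the count of 11 was 3 without either α3 array. Sprr2h, Cdsn and Lgals7 held throughout, the other 8 were lost without either α3 array, Ivl also without α3α9 replicate 1, Abca12 also without either null array, and Ly6d and Pou3f1 also without either null array or α3α9 replicate 2.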

How the data were processed

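The series measured RNA of 8 samples, 2 from each of 4 keratinocyte lines, and samples were grouped by their titles. The deposited values are intensities, 1 per transcript cluster and array, made with Affymetrix Expression Console and PLIER per the submitters' processing notes. The series text, per the labels, names the Exon Array Computational Tool instead. The sources used here give no versions, build or filters. PLIER combines the probes of a cluster, so a probe that binds several Sprr transcripts adds to each.

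Gene names came from the platform annotation, and 14805 of 14860 symbols had their Entrez number in RefSeq's GRCm38.p6 table. Of 23332 clusters 14996 carried 1 gene, 1019 several and 7317 were not listed. Values were taken as log2(intensity + 16) and fitted with lmFit and eBayes of limma 3.58.1 (R 4.3.3) to all 8 arrays, each line having its own mean, which left 4 residual degrees of freedom. Benjamini-Hochberg adjustment ran over all 23332 clusters within each of 5 contrasts. Arrays give no read depth, so their number limits the precision. The fit was also run on simulated data with known changes and independent noise drawn from its own estimate of spread. Array brightness did not differ there, so that run checks the code and not the calls. The 41 genes and the other lists were chosen with earlier results of these data known, so no p-value is adjusted over a list. Listed genes that passed are given by array, up to 20 per comparison, and the others by range; genes of other lists are named where they passed, up to 4 per list and comparison. The alternatives were quantile normalization, a common array median, no dim clusters, pseudocounts of 1 and 64, the replicate number as a block, fits on the 2 lines of a comparison, and leaving out 1 array at a time. Motifs and alignments used Python 3.11.15 with Biopython 1.88, and figures matplotlib 3.10.9.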

Additional observations from a re-analysis of the deposited data

How the results depend on the processing

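Of 35 calls, 11 held without each array in turn, and after quantile normalization of the remaining arrays 28 did. None reversed under any alternative, including that combination, which was chosen after seeing the data. The comparisons are taken in the order α3 over null, α3α9 over α9, α9 over null, α3α9 over α3, then the interaction, and 3, 10, 11, 11 and 0 genes passed, beside 303, 436, 1009, 765 and 20 of all clusters. After quantile normalization 11, 18, 13, 18 and 3 genes passed, beside 1915, 2325, 3999, 4389 and 172 clusters. At a common array median 9, 17, 13, 18 and 3 passed, beside 1359, 1854, 3107, 4199 and 139 clusters. Without the dimmest 25% of clusters, α3 over null had 5 and the interaction 1, beside 441 and 59 clusters. A pseudocount of 1 left 1, 4, 3 and 3 in the comparisons between lines, beside 151, 174, 211 and 165 clusters. The compared lines alone gave 5 for α3 over null, beside 568 clusters. The cause of these moves was not tested.

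Leaving out single arrays gave 0 to 6, 5 to 15, 3 to 12, 3 to 16 and 0 to 3 genes in the 5 comparisons. After quantile normalization the same gave 2 to 9, 11 to 17, 9 to 13, 11 to 19 and 0 to 2. In all 5 comparisons the clusters passing over the whole table also moved with the array left out, before and after quantile normalization. A narrow range of gene counts, as for α9 over null after quantile normalization, thus does not show that those fits were stable. With the replicate number of the titles as a block, 5, 9, 8, 8 and 0 passed, beside 276, 360, 689, 482 and 18 clusters. Differences between replicates 1 and 2 correlated between lines at -0.21 to 0.07. No strong effect shared by arrays of the same number was thus seen, which does not show whether they were handled together.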

Other observations

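Sprr2e and Sprr2k, outside the 41 genes, lie between Sprr2d and Sprr1b in RefSeq's order on chromosome 3. They and the other Sprr2 rows given here were chosen after their values were seen. Sprr2e gave 21.1 and 42.9 in the α3α9 line, 142 and 142 in the α3 line, 442 and 241 in the α9 line and 166 and 205 in the null line. It was thus lowest in the α3α9 line, as Sprr2d and Sprr2h were. Sprr2g, annotated as a transcribed pseudogene, gave 31.7 and 67.2 in the α3α9 line against 127 and 149 in the α3 line. Sprr2k gave 292 and 673 in the α3α9 line, 1149 and 829.6 in the α3 line, 1007 and 825 in the α9 line and 493 and 657 in the null line, and passed in no comparison. Sprr2b was listed at about 0.0001 on all 8 arrays.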
